A study of Mus musculus with 6 samples.

Results

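The miR-379/410 cluster is a run of microRNA (miRNA) hairpins in the imprinted Dlk1-Dio3 domain of mouse chromosome 12. Its members were taken by name as both arms of 39 hairpins, from miR-379 and miR-411 at one end to miR-410 and miR-3072 at the other, and 75 of the 1926 entries in the deposited miRNA table matched. Entries that merge 2 near-identical miRNAs, such as miR-299a and miR-299b, counted as members. Small RNA was sequenced from extracellular vesicles isolated from the brain tissue of mice. Vesicles of mice after status epilepticus, a seizure that does not stop on its own (SE), were set against those of matched controls (CON), with 3 libraries in each of the 2 groups. The series title gives 24 hr. Genotype, strain, age, the agent that induced the seizures and any pooling of animals are not given in the sources used here. The labels do not state whether each library is from its own animal. A p-value here therefore reflects the spread among these libraries alone, and that spread may be technical.

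As background, the cluster is expressed from the maternally inherited chromosome, as part of long non-coding transcripts that include Mirg, and its products are found mainly in brain and placenta. Each hairpin is cut into a 5p and a 3p strand, and a strand loaded into an Argonaute protein pairs with target mRNAs mainly through its seed. In neurons, transcription of the cluster rises with activity through the factor Mef2. Several members act on dendrites and synapses: miR-134 represses the kinase Limk1 and limits the size of dendritic spines, and miR-485 represses the synaptic vesicle protein SV2A.

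The sequences below are those of members on which the levels and differences turn, together with their closest relatives in the cluster. They are mature sequences from RefSeq (GRCm38.p6 table), 5′ to 3′, and capitals mark the seed, bases 2 to 8. Of the 77 mature names that the members stand for, 73 had a sequence in that table, and miR-376c-3p, miR-485-5p, miR-487b-3p and miR-539-3p are named only.
miR-382-5p: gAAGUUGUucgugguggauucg
miR-411-5p: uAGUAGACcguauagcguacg
miR-379-5p: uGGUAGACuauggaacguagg
miR-376b-3p: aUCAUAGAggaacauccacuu
miR-376a-3p: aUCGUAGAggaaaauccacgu
miR-300-3p: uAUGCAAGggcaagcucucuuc
miR-381-3p: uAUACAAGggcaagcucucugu
miR-323-3p: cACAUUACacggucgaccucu
miR-323-5p: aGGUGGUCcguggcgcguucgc
miR-154-5p: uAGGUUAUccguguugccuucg
miR-134-5p: uGUGACUGguugaccagagggg
Positions in the following pairs are counted from the 5′ end, with the base of the miRNA named first written first. The seed of miR-376b-3p differed from that of miR-376a-3p at 1 base (A4G). The same held for miR-300-3p against miR-381-3p (G4A) and for miR-411-5p against miR-379-5p (A2G). Among detected members, seeds identical to each other were found in 4 groups. AUGUAAC was shared by miR-411-3p and miR-379-3p, and AUGUGGG by the 3p arms of miR-299a and miR-299b. GGUAGAC was shared by miR-379-5p and miR-1193-5p, and GGUUGUC by miR-410-5p and miR-494-5p. Members at 0 in every library also shared seeds: miR-376c-5p with miR-376b-5p, miR-1197-5p with miR-758-5p, and miR-453 with miR-496a-5p. The abundant members thus held no pair with an identical seed. The letters AGGUU, searched after the sequences had been seen and on the single mature strand, were present in 10 of the 73 member sequences (13.7%), miR-154-5p among them. They were present in 38 of 1601 other mouse mature miRNAs (2.37%).

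The libraries held 5482407 to 10845434 miRNA reads, recovered from the smallest steps of the deposited values, which are reads scaled to a fixed total of miRNA reads (RPM). At this depth 3 reads stood for 0.277 to 0.547 RPM. In the deposited table the values of the 3 CON columns did not follow the miRNA names: they were sorted from high to low on their own. They were put back under names through the base means of the authors' deposited DESeq2 table, and all 687 CON row totals found a match within a relative difference of 1e-05. The deposited fold changes were opposite in sign to SE minus CON for 317 of the 317 miRNAs with a base mean above 50, so a positive deposited value stands for a higher level in CON. Neuron and brain marker miRNAs (miR-124-3p, miR-9-5p and 4 others) were all detected and summed to 21854 to 26905 RPM in SE and 24260 to 28883 RPM in CON. Markers of other cells were present at lower summed levels. The hepatocyte list (miR-122-5p, miR-192-5p, with miR-122-3p at 0) summed to 92.8 to 117 RPM in SE and 154.04 to 239 RPM in CON, and the muscle list to 208 to 222 RPM and 234 to 311 RPM. Both lists were lower in SE without overlap, and their part in the results below was not tested. The red cell, myeloid, oligodendrocyte and choroid plexus lists overlapped between the groups.

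The cluster made up between 1.62% and 1.88% of all miRNA reads. Its share was 1.88%, 1.73% and 1.62% in SE replicates 1 to 3 and 1.85%, 1.80% and 1.73% in CON replicates 1 to 3. The groups overlapped, with means of 1.74% ± 0.130 (SD, n = 3) in SE and 1.79% ± 0.061 (SD, n = 3) in CON. Of the 75 members, 67 were detected and 54 were present in all 6 libraries. Only 2 members had a mean of at least 1000 RPM and 16 had a mean of at least 100 RPM. The 8 members listed at 0 in every library were both arms of miR-1197 and of miR-654, miR-376c-5p, miR-453, miR-539-3p and miR-679-3p. No member was seen in CON alone, and 3 were seen in SE alone, each in 1 library with few reads. miR-496a-5p had 9 reads and miR-487b-5p had 4, both in SE replicate 1, the deepest library. miR-541-3p had 3 reads, in SE replicate 2. In whole-brain vesicles a lower level can stand for fewer vesicles from a cell type or for less of the miRNA per vesicle, and these cannot be told apart here.

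A single strand, miR-382-5p, carried most of the cluster's reads. Its level was 11589.7, 11459 and 9349 RPM in the SE libraries and 10522, 11095 and 9007 RPM in the CON libraries, which ranked it 13th of all miRNAs. These values overlapped between the groups, with replicate 3 the lowest in each. It made up 61.8%, 66.1% and 57.8% of cluster reads in SE and 56.8%, 61.5% and 52.1% in CON. Without it, the rest of the cluster summed to 7171, 5882 and 6816 RPM in SE and to 7990.2, 6936 and 8287 RPM in CON. The remainder therefore averaged 6623 ± 666.04 RPM in SE against 7738 ± 709.7 RPM in CON (SD, n = 3 each), and SE replicate 1 lay above CON replicate 2.

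**Figure D1:**
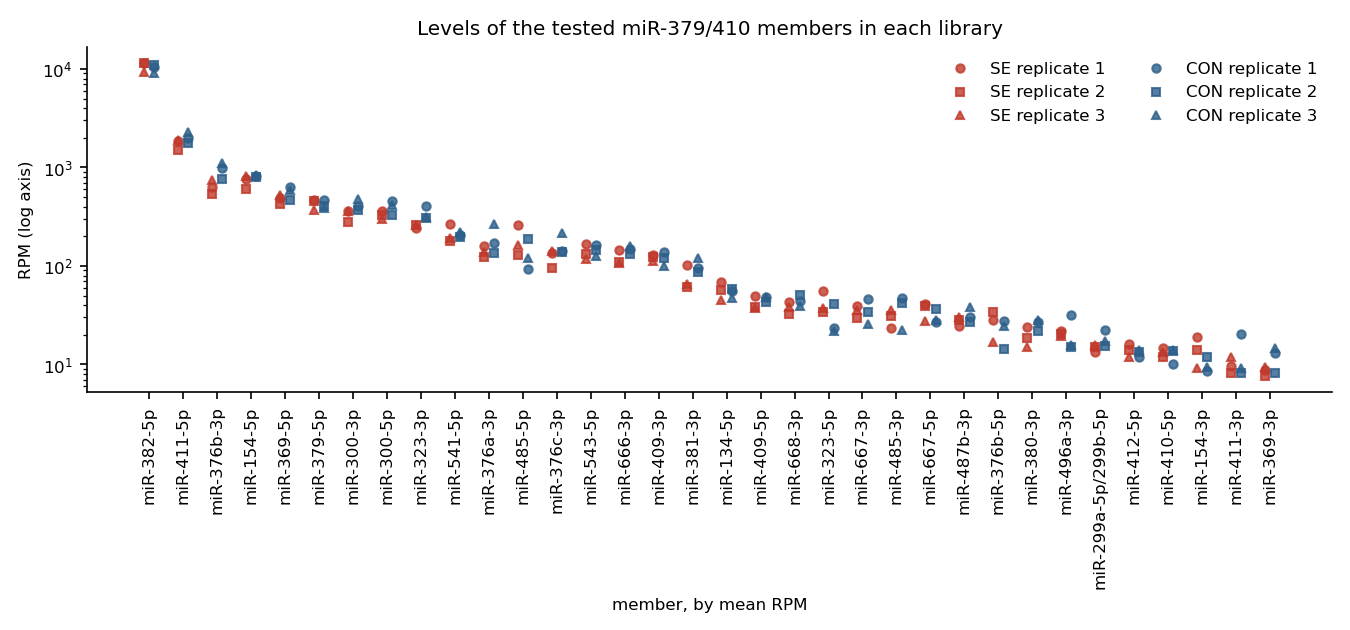
Each point is 1 library (SE and CON in 2 colours) and gives the level of a tested member in RPM on a log axis, with members ordered by their mean. Levels ran from about that of miR-382-5p, at 9007 RPM or more in every library, down to miR-369-3p at a mean of 10.3 RPM, and the points of the groups lay close together for nearly all members.

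The second member, miR-411-5p, was present at 1839, 1491 and 1885 RPM in SE and 2005, 1777 and 2275 RPM in CON. Its near-relative miR-379-5p, from the first hairpin of the cluster, had 465, 452 and 366 RPM in SE and 466, 408 and 387 RPM in CON. For miR-154-5p the SE libraries held 772, 602 and 812 RPM and the CON libraries 825, 803 and 839 RPM. In these 3 members the groups overlapped, although the lowest library was SE replicate 2 for miR-411-5p and miR-154-5p. The level of miR-369-5p was 489.5, 424 and 526 RPM in SE and 639, 464 and 597 RPM in CON. For miR-541-5p the values were 269.8, 180.0 and 194 RPM in SE and 205, 199 and 220.0 RPM in CON. SE replicate 1 was thus the highest library for miR-541-5p, and the other 5 libraries lay close together.

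The question the design poses is whether vesicles differ in these miRNAs after status epilepticus. No member passed the test. A mean of 10 RPM or more was required for testing, which 290 miRNAs met, 34 of them members, and limma on log2(RPM + 1) with Benjamini-Hochberg adjustment over all 290 called 0 of the 34 at an adjusted p under 0.05. It called 3 of all 290 (1.03%). At an unadjusted p under 0.05 the members numbered 3 of 34, against 27 of 290 in all (9.31%). These were 2 lower in SE (7.59% of all) and 1 higher (1.72% of all). The differences of the 34 members, on the log2(RPM + 1) scale and as SE minus CON, ran from -0.58 to 0.58, with 20 below 0 and 14 above. Their median was -0.18, beside -0.07 over all 290, of which 59.7% were below 0. Under quantile normalization these medians were -0.014 and 0, and the members' median was 0.014 with no filter on low values (67 members). It was also smaller in size without CON replicate 1 (-0.094) or without SE replicate 2 (-0.11). For 29 of the 34, the 95% interval of the difference lay within a 2-fold change in either direction. The exceptions were miR-376b-3p, miR-485-5p, miR-323-5p, miR-154-3p and miR-369-3p. The other 33 detected members lay under the filter, with miR-329-5p the highest of them at a mean of 9.36 RPM.

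For 67 members a p-value was given in the authors' deposited table. Adjusted, 0 of the 67 were under 0.05, beside 8 of 772 miRNAs in all (1.04%). Its lowest adjusted p among members was 0.817, for miR-376b-3p, and 1 member was below 0.05 unadjusted, beside 5.05% of all.

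**Figure D2:**
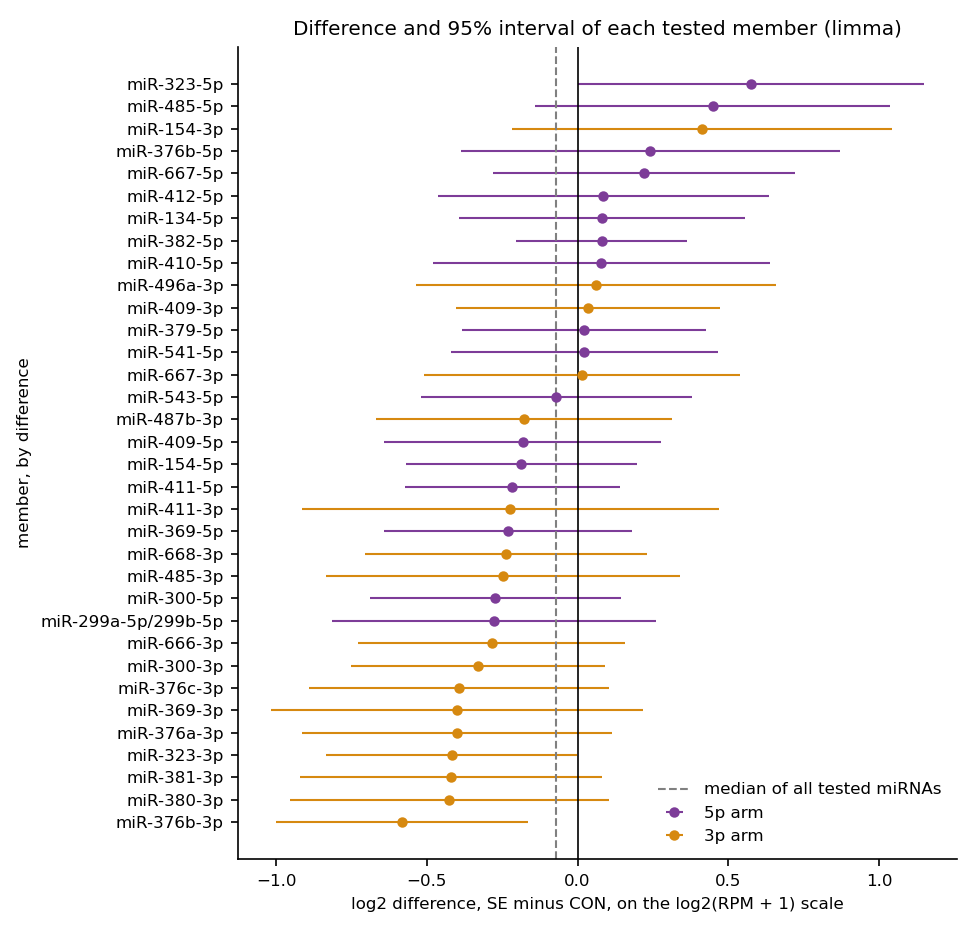
Points are the SE minus CON differences of the 34 tested members on the log2(RPM + 1) scale, and bars are 95% intervals from limma. Members are ordered by difference, from miR-376b-3p at -0.58 to miR-323-5p at 0.58, and 0 of the 34 passed an adjusted p of 0.05.

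The largest difference to the lower side was that of miR-376b-3p, whose hairpin family is known for adenosine-to-inosine editing within the seed that changes its targets. It had 634, 533 and 746 RPM in SE and 990.4, 768 and 1113 RPM in CON. Every SE library lay below every CON library, although the gap between SE replicate 3 and CON replicate 2 was small. Means were 638 ± 106.5 RPM and 957 ± 175 RPM (SD, n = 3), and the log2 difference was -0.58 with a standard error of 0.20 and a 95% interval of -1.0 to -0.16. With limma the adjusted p was 0.233. The log2 fold change of miR-376b-3p in the authors' deposited table was 0.47 with a standard error of 0.21 (positive for higher in CON). The files do not separate edited from unedited reads.

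Its relatives pointed the same way with wider spread. For miR-376a-3p the levels were 159, 122 and 140.2 RPM in SE and 171, 135.9 and 270.0 RPM in CON, a log2 difference of -0.40 (95% interval -0.91 to 0.11; limma adjusted p = 0.641). For miR-376c-3p they were 137, 95.1 and 143 RPM in SE and 143, 138 and 216 RPM in CON, a log2 difference of -0.39 (95% interval -0.89 to 0.10). Without CON replicate 3 these differences were -0.13 for miR-376a-3p and -0.19 for miR-376c-3p, without SE replicate 2 that of miR-376c-3p was -0.21, and without CON replicate 2 that of miR-376a-3p was -0.62. CON replicate 3 was the highest library for all 3 strands, and the groups of miR-376a-3p and miR-376c-3p overlapped. Reads of such close sequences could have been shared between the 3 hairpins by the authors' counting, so their split is uncertain. The opposite strand, miR-376b-5p, was low, with 28.3, 33.9 and 16.7 RPM in SE and 27.4, 14.2 and 24.4 RPM in CON.

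Groups did not overlap for 2 further members, miR-300-3p and miR-323-3p. For miR-300-3p the SE libraries held 363, 278 and 359 RPM and the CON libraries 408, 368.6 and 479 RPM, a log2 difference of -0.33 with a standard error of 0.20 (limma adjusted p = 0.641). For miR-323-3p they held 241, 259.6 and 264 RPM in SE and 408, 308 and 314 RPM in CON, a log2 difference of -0.42 with a standard error of 0.20 (limma adjusted p = 0.528). Without SE replicate 2 the difference of miR-300-3p was -0.20. The SE libraries of miR-323-3p were close to each other, and CON replicate 1 stood above the others. In all, 3 of 34 members had groups that did not overlap, beside 14.8% of all 290 miRNAs. All 3 were lower in SE (13.4% of all) and 0 were higher (1.38% of all), so the members' share was not above the background. The count changed with the scaling: under median-of-ratios scaling only miR-323-3p, and under quantile normalization only miR-380-3p, was free of overlap. The share over all miRNAs was not taken under these scalings, so these counts are not read as a result about the members.

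The close relative of miR-300-3p in the seed, miR-381-3p, has a reported part in activity-dependent growth of dendrites. Its levels were 103.1, 61.0 and 66.4 RPM in SE and 96.4, 86.8 and 121 RPM in CON, a log2 difference of -0.42 (95% interval -0.92 to 0.08; limma adjusted p = 0.641). SE replicate 1 lay inside the CON range and the other SE libraries below it, and the difference was -0.65 without SE replicate 1 and -0.28 without SE replicate 2. The low strand miR-380-3p had 24.2, 18.6 and 15.1 RPM in SE and 27.2, 22.1 and 28.6 RPM in CON, and its log2 difference of -0.43 had the same adjusted p and was -0.27 without SE replicate 3. The other strand of the miR-300 hairpin, miR-300-5p, had 358, 329.4 and 302 RPM in SE and 458, 332 and 415 RPM in CON, with overlap and a log2 difference of -0.27.

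On the higher side the largest difference was that of miR-323-5p. It had 56.1, 33.9 and 37.7 RPM in SE and 23.6, 40.7 and 21.7 RPM in CON. CON replicate 2 lay within the SE values, and the log2 difference was 0.58 with a standard error of 0.27 (limma adjusted p = 0.528). It came from the same hairpin as miR-323-3p, so the opposite strands of this hairpin gave differences of opposite sign. miR-154-3p had 19.2, 14.0 and 9.27 RPM in SE and 8.58, 12.0 and 9.53 RPM in CON, a log2 difference of 0.41 (95% interval -0.22 to 1.04). miR-667-5p had 40.8, 38.9 and 28.0 RPM in SE and 26.8, 36.5 and 28.3 RPM in CON, a log2 difference of 0.22. SE replicate 1 was the highest library for miR-323-5p, miR-154-3p and miR-667-5p, and SE replicate 3 lay within the CON range for each of them. Without SE replicate 1 the differences were 0.36 for miR-323-5p, 0.18 for miR-154-3p and 0.12 for miR-667-5p. Without SE replicate 3 they were 0.67 for miR-154-3p and 0.38 for miR-667-5p, and without CON replicate 2 that of miR-667-5p was 0.35 and without CON replicate 1 it was 0.14.

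Members with a known action at synapses and dendrites gave no shared direction. miR-485-5p had 262, 128 and 162 RPM in SE and 94.2, 187 and 121 RPM in CON, a log2 difference of 0.45 (95% interval -0.14 to 1.04; limma adjusted p = 0.655). Leaving out single libraries moved it both ways, to 0.16 without SE replicate 1 and 0.22 without CON replicate 1, and to 0.71 without CON replicate 2 and 0.67 without SE replicate 2. miR-134-5p had 69.5, 57.5 and 45.1 RPM in SE and 55.4, 58.4 and 47.0 RPM in CON. Its log2 difference was 0.08 with a 95% interval of -0.39 to 0.56 (limma adjusted p = 0.935), and the SE libraries spanned the whole CON range. miR-329-3p, linked like miR-381-3p to dendrite growth, was under the filter at 12.0, 6.81 and 7.92 RPM in SE and 8.76, 7.66 and 7.84 RPM in CON. Of 8 such members listed, all were detected and 6 were tested: miR-134-5p, miR-381-3p, miR-485-5p, miR-379-5p, miR-376c-3p and miR-411-5p. Of these 6, 3 were above 0 and 3 below, with a median of -0.10, and 0 passed the test.

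Members reported to repress N-cadherin during cortical neurogenesis were low. miR-496a-3p had 21.9, 20.3 and 19.6 RPM in SE and 31.8, 15.0 and 15.8 RPM in CON, with CON replicate 1 apart from the other CON libraries. miR-369-3p had 8.76, 7.65 and 9.42 RPM in SE and 13.05, 8.21 and 14.6 RPM in CON, a log2 difference of -0.40 (95% interval -1.02 to 0.22). miR-543-3p had 2.95, 2.49 and 4.78 RPM in SE and 6.08, 3.10 and 3.997 RPM in CON. All 3 overlapped between the groups. Other low strands were miR-494-3p, at 2.46 to 4.38 RPM over the 6 libraries, and miR-495-3p, a reported repressor of Bdnf, at 4.19 to 12.5 RPM. The strand that gives the cluster its second name, miR-410-3p, had 1.57, 1.83 and 1.79 RPM in SE and 2.15, 3.10 and 0 RPM in CON, where differences were not detectable at this depth.

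The 5p and 3p strands differed in their median. The 17 tested 5p strands had 7 differences below 0 and 10 above, a median of 0.02 and a range of -0.28 to 0.58. The 17 tested 3p strands had 13 below 0 and 4 above, a median of -0.29 and a range of -0.58 to 0.41. Outside the cluster the medians were -0.03 for 131 other 5p strands, of which 58.0% were below 0, and -0.12 for 108 other 3p strands, of which 61.1% were below 0. As a share of all reads, the 3p strands of the cluster made up 0.207% ± 0.021 in SE and 0.273% ± 0.036 in CON (SD, n = 3), and the 5p strands 1.54% in SE and 1.52% in CON. The other tested 3p strands made up 5.25% ± 0.26 in SE and 6.19% ± 0.57 in CON, and the other tested 5p strands 89.7% and 88.7%. The mean 3p share was thus lower in SE outside the cluster too. Shares add to a fixed total, so a higher 5p share goes with a lower 3p share, and these are not separate results. The part of let-7 reads in these shares was not tested. The median of the 3p strands was -0.18 under median-of-ratios scaling and -0.23 under quantile normalization, and that of the 5p strands 0.13 and 0.12. The 5p median was below 0 at a filter of 50 RPM (-0.024) and without SE replicate 1 (-0.066), CON replicate 2 (-0.0092) or CON replicate 3 (-0.0087). No test was run on these lists, and 0 strands of either kind were called.

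Which strand held more reads differed between hairpins. These are shares of vesicle reads, and the loading or turnover of strands was not measured. Of 38 hairpin entries, counting miR-299a and miR-299b as 1 and including miR-453, which has no named strand, 35 were detected. Among them 25 had a mean of at least 10 RPM for the higher strand. The 5p strand was the higher in 12 of these 25 and the 3p strand in 13. The shares were often far apart: the 5p strand held over 90% of hairpin reads in 8 hairpins and the 3p strand in 7. miR-541 (99.96% 5p), miR-382 (99.95%), miR-411 (99.4%), miR-154 (98.5%), miR-379 (98.2%) and miR-369 (98.1%) lay at one extreme. At the other were miR-376b (2.94% 5p), miR-381 (1.43%), miR-496a (0.66%), miR-487b (0.21%) and miR-376c, whose 5p strand was at 0. Near-equal shares were seen in miR-300 (49.3% 5p) and miR-667 (48.5%), and both strands of miR-300 were among the 10 most abundant members. The 5p share differed without overlap in 1 of the 25 hairpins, miR-380, beside 5.08% of 177 hairpins in all: it was 28.8%, 32.1% and 35.7% in SE and 25.9%, 24.8% and 26.5% in CON. For miR-323 the 5p share was 18.9%, 11.6% and 12.5% in SE and 5.47%, 11.7% and 6.46% in CON, with CON replicate 2 inside the SE range.

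**Figure D3:**
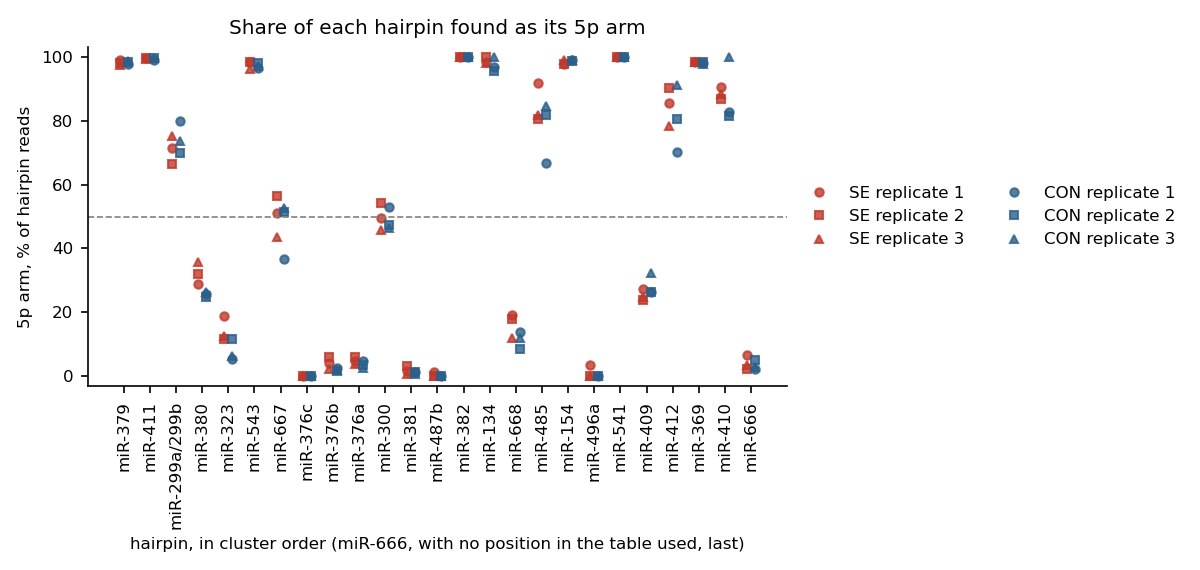
Each point is 1 library (SE and CON in 2 colours) and gives the percent of a hairpin's reads that were its 5p strand. The 25 hairpins are in cluster order, except miR-666, which had no hairpin record and is drawn last. Hairpins gather near 0% and 100%, miR-300 and miR-667 lie near 50%, and the groups overlap except for miR-380, whose SE points are all above its CON points.

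Levels along the cluster showed no even course. In GRCm38.p6, 37 of the 39 hairpins had a hairpin record, from Mir379 to Mir3072 within chr12:109709060-109747960, a span of 38.9 kb. For miR-666 and miR-544 only the mature strands had positions, inside this span, with miR-666 between miR-1193 and miR-543. All but Mir299b lay on the plus strand. In the GENCODE vM21 annotation of GRCm38, 14 hairpins from Mir382 to Mir3072 lay inside the non-coding gene Mirg, 4 of them in exons, 5 partly in exons and 5 in introns, and 23 lay in no annotated gene on their strand. Both strands together averaged 432 RPM for miR-379 and 1889.8 RPM for its neighbour miR-411, while miR-758 had 1.79 RPM. In the middle, miR-376c, miR-376b, miR-376a and miR-300 had 145, 822, 173 and 742 RPM, with miR-654, at 0 RPM, between miR-376c and miR-376b. miR-382, the first hairpin inside Mirg, had 10508 RPM, and miR-134 beside it 56.6 RPM. Detected hairpins thus spanned mean levels from 1.79 to 10508 RPM, and the spread between libraries was small beside that.

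**Figure D4:**
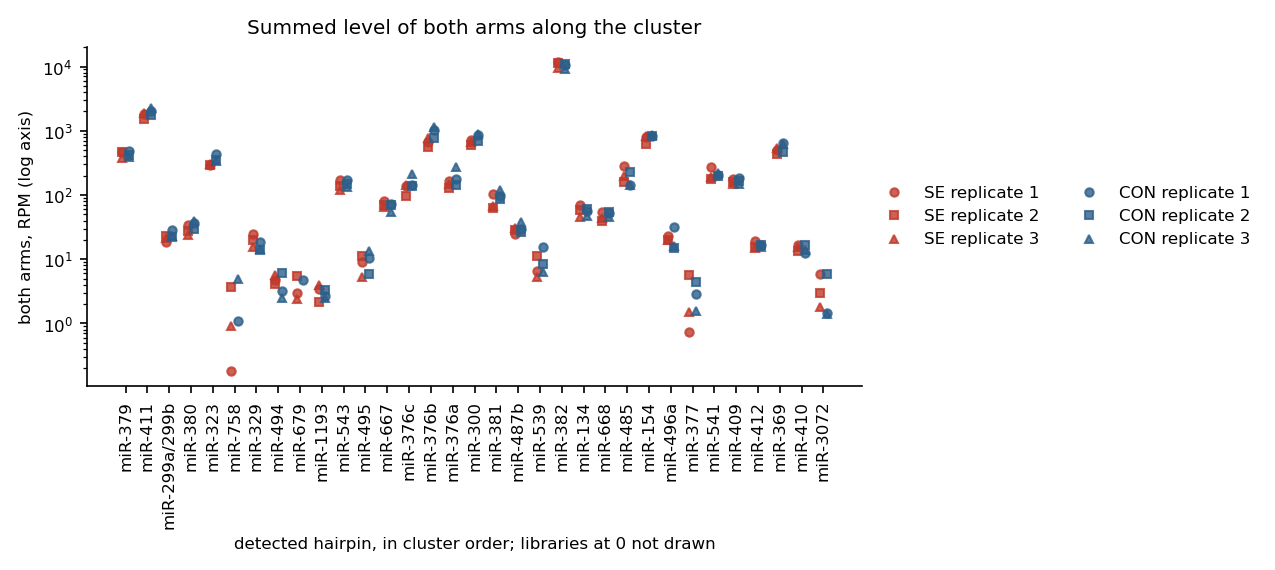
Each point is 1 library (SE and CON in 2 colours) and gives the summed RPM of both strands of a hairpin on a log axis. Detected hairpins with a hairpin record are drawn in their order along the cluster, so miR-666 and miR-544 are left out. Adjacent hairpins lie far apart, as with miR-382 at a mean of 10508 RPM and miR-134 at 56.6 RPM. The groups overlap at most hairpins, but not at miR-323 and miR-376b, where every SE point is below every CON point. The share of all hairpins with summed levels free of overlap was not taken. Among single miRNAs, 13.4% of all 290 tested were lower in SE without overlap.

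Other miRNAs of the same imprinted domain, outside the cluster, were also free of calls. Of 32 listed entries of 16 hairpins, among them miR-127, miR-136, miR-370 and miR-434, 20 were tested and 0 were called, with a lowest limma adjusted p of 0.641. Their median difference was -0.04, with 12 of 20 below 0 and a range from -0.39 (miR-431-5p) to 0.20 (miR-370-3p). Together they made up 0.993% ± 0.046 of reads in SE and 1.04% ± 0.082 in CON (SD, n = 3).

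Base composition moved with single libraries. Sequences were at hand for 31 of the 34 tested members (91.2%), with a G + C content of 23.8% to 72.7%. Across these 31 members, Spearman's rho between G + C content and a library's deviation from its group mean was 0.70 in CON replicate 2 and -0.55 in CON replicate 3, and between -0.15 and 0.14 in the other 4 libraries. Across 209 other tested miRNAs, the values in these CON libraries were 0.55 and -0.37, and that in SE replicate 1 was 0.37. With the SE minus CON difference itself, rho was 0.25 across members and 0.34 across the others, 0.46 across members without CON replicate 2 and 0.08 without CON replicate 3. Deviations are taken from the mean of the library's own group, so a rise in a library goes with a fall elsewhere in that group. The opposite trends in CON replicates 2 and 3 are therefore not separate results. The points share libraries and are not independent replicates, so no p is given, and the part of base composition in the differences was not tested.

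**Figure D5:**
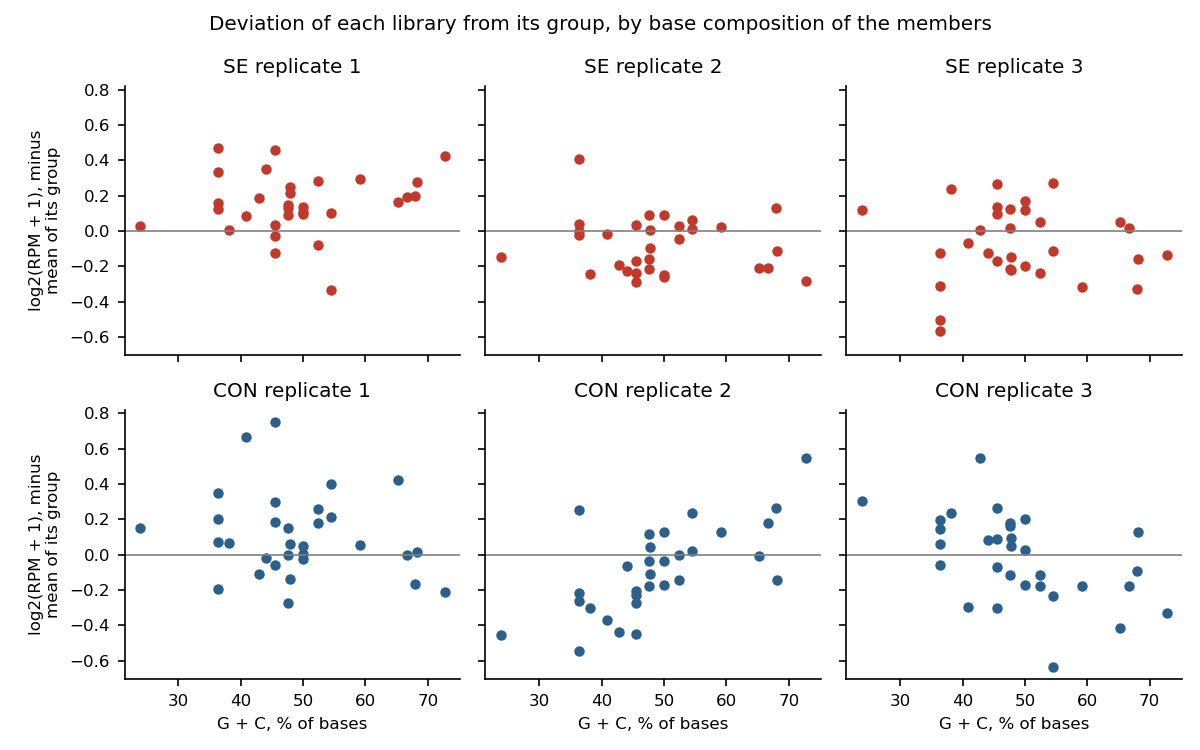
Each panel is 1 library and each point 1 of the 31 tested members with a sequence: the x axis is G + C in percent of bases and the y axis the member's log2(RPM + 1) minus the mean of its group. The points rise with G + C in CON replicate 2 (rho 0.70) and fall in CON replicate 3 (rho -0.55).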

How the data were processed

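miRNA libraries were made with the QIAseq miRNA Library Kit, per the labels. The authors deposited RPM (reads scaled to a fixed total) per miRNA and a DESeq2 table, whose name and the mm9 build come from the submitters' processing notes; the aligner, the counting and any use of molecular identifiers are not given in the sources used here. Per the file headers, the deposited DESeq2 table holds a base mean (a normalized signal per miRNA), a log2 fold change and its standard error, a test score, p-values and their adjusted form.

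CON values were put back under names by matching the base mean computed from the RPM values with the deposited one. Each CON row total was matched: 597 of 687 had 1 candidate and 90 had several candidates with identical values. Library totals were recovered as the steps between low values, where the lowest value above 0 stood for 2 reads and all values were whole within 0.01 reads. limma 3.58.1 (R 4.3.3, trend, two-sided) was fitted to log2(RPM + 1) of every miRNA whose mean reached 10 RPM, with Benjamini-Hochberg adjustment. The fit was also run on simulated counts without library or base composition effects, which does not show its power on these data. The pseudocount of 1 RPM understates the change of low miRNAs. Python 3.11.15 with pandas 2.3.3 and scipy 1.17.1 was used for the rest. RPM values add to a fixed total, so a change in abundant miRNAs shifts all others.

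Values were given for the 10 most abundant members, the 6 lower and 6 higher with the smallest unadjusted p, members called, members with a known role and any with 20 reads or more in 1 group alone; other members were picked with their values in view. The members and lists were chosen with earlier results of these data known. Replicate numbers were not taken to pair libraries. Alternatives covered the pseudocount, the filter, the scaling, the limma options, each left-out library and the CON names as deposited. The labels name no batch.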

Additional observations from a re-analysis of the deposited data

How the results depend on the processing

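Each group held 3 libraries, and 33 detected members were too low to be tested. In all settings run, 0 members were called, with a lowest adjusted p of 0.109 (miR-376b-3p, without CON replicate 2). Same-numbered libraries deviated with correlations of -0.42, -0.25 and 0.04, and differently numbered ones with -0.20 to 0.42. These values do not settle whether the numbers pair libraries. With the replicate number as a block, limma called 0 members (lowest adjusted p 0.301) and 3 of all miRNAs. The median difference of tested members was 0.014 with no filter (67 members) and -0.014 under quantile normalization. The median over all miRNAs moved from -0.07 to 0.03 under median-of-ratios scaling and to 0 under quantile normalization. Members without overlap numbered 1 under each of these scalings, and 3 to 15 when a library was left out. There were 15 without CON replicate 2, 10 without SE replicate 1 or 3 and 5 without CON replicate 3. With fewer libraries in a group, groups are free of overlap more readily. The share over all miRNAs was not taken in these settings, so the counts are not read as a result about the members. miRNAs called in all numbered 0 with the CON values under their deposited names, and 3 to 6 when a library was left out: 6 without CON replicate 2 and 5 without CON replicate 3. The SE minus CON difference of the cluster share was -0.05 percentage points, and 0.43 as a share of reads other than let-7. Left-out libraries moved it from -0.12 (without SE replicate 1) to 0.011 (without SE replicate 3). The causes were not tested.

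Of 22 named members tested, 9 kept their sign in each setting in which they passed the filter. miR-369-3p had a value in 13 of 17 settings and miR-154-3p in 16. The settings include the CON values under their deposited names, where most stand under another miRNA. Signs that turned there do not bear on how stable a member's difference was. It was the only setting with a turned sign for miR-369-5p, miR-323-3p, miR-380-3p, miR-323-5p, miR-485-5p and miR-667-5p. miR-154-5p was 0.19 under quantile normalization. The difference of miR-382-5p was 0.08 on the RPM values, 0.18 under median-of-ratios scaling and 0.31 under quantile normalization (limma adjusted p = 0.478). With the CON values under their deposited names, signs turned for miR-369-5p (0.11), miR-379-5p (-0.048), miR-323-3p (0.12), miR-380-3p (0.042), miR-323-5p (-0.14), miR-485-5p (-0.15), miR-667-5p (-0.16), miR-376b-5p (-0.15) and miR-134-5p (-0.19), and the medians were -0.14 for 5p and -0.10 for 3p strands.
When each library was left out in turn, signs turned for miR-382-5p (range -0.0076 to 0.18), miR-379-5p (-0.042 to 0.13), miR-541-5p (-0.15 to 0.14), miR-376b-5p (-0.031 to 0.52), miR-134-5p (-0.066 to 0.24) and miR-496a-3p (-0.13 to 0.39).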
